A study of Mus musculus with 20 samples.

Results

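The 10 genes described here build the ends and the middle of the sarcomere, the contractile unit of striated muscle. They are titin (Ttn), nebulin (Neb), the Z-disc genes Actn2, Actn3, Myoz1, Myoz2, Tcap and Ldb3, and the M-band and thick filament genes Myom2 and Mybpc1. They were taken as the probe sets whose platform symbol is one of these names. Each gene had 1 such probe set, and none had a further probe set shared with another symbol. All 10 were measured, among 22180 genes in all, and no filter on low values was applied.

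Expression was measured on Affymetrix mouse gene arrays in C2C12, a mouse myoblast line that can form muscle fibres and that takes on osteoblast features under bone morphogenetic proteins. The design sets 3 small molecules, known here by the code names 942, 178 and 181, beside recombinant BMP4, a ligand of the bone morphogenetic protein pathway. The cultures were kept in 5% serum, seeded in wells overnight and then switched to fresh medium with the treatment. There were 20 arrays. Untreated cells had 2 and methanol 3, BMP4 had 2 at each of its doses (10, 100 and 300 ng/ml), and the compounds had 1 per dose (6.25, 12.5 and 25 µM). No gene was deleted or added in any group. For the compounds methanol was taken here as the vehicle control, which is an assumption. A time between treatment and harvest was not given in the sources used here. Labels leave unsaid whether replicate arrays stem from separate cultures. The p-values therefore measure only how these samples vary, which may be technical variation.

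Values are log2 signals, so a difference of 1 is a doubling. Array medians lay between 4.93 and 5.05. The 4 arrays labelled by a method called Affyexpress were those of compound 942 and replicate 1 at 300 ng/ml BMP4, and the model carried a term for this label. As a result replicate 2 alone sets the fitted mean at 300 ng/ml, and the errors of 942 are wide. The sample titles are numbered without a break, and their treatments start over once, with a second untreated array. Arrays before that point are called here the lower-numbered set (1 array each of untreated, methanol and every BMP4 dose, and all of 942) and the rest the higher-numbered set. Whether the sets were batches or differed in time was not stated. The wells were checked against markers of their labelled cell type. Myod1 (10.50), Myog (11.05), Cdh15 (9.98), Myf5 (9.33) and Des (11.58) had these mean log2 signals in untreated cells. The lists for adipocyte, endothelial, macrophage, epithelial and cardiac muscle cells, 3 genes each, averaged between 3.76 and 5.41 on every array. Single genes could lie higher, and the highest was the cardiac gene Nkx2-5. It had a mean of 6.79 in untreated cells and lay between 6.49 and 7.02 on the 20 arrays. The adipocyte, endothelial, macrophage, epithelial and cardiac lists had 0 genes called for BMP4. Over its averaged doses 4.60% of all genes were called lower and 4.20% higher.

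In a sarcomere, alpha-actinin cross-links actin filaments of opposite polarity at the Z-disc, and titin runs from there to the M-band, where myomesins tie the thick filaments together. Nebulin lies along the thin filament, and myosin-binding protein C sits on the thick filament. Myozenins, telethonin (Tcap) and the PDZ-LIM protein of Ldb3 bind alpha-actinin or titin at the Z-disc. Many of these genes come on as myoblasts withdraw from the cell cycle and differentiate, under MyoD-family factors, which bind E-boxes (CANNTG), and MEF2 factors.

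The sequences just before the start sites of Myoz2 and Ttn are shown because these genes had the largest changes under BMP4 (Myoz2 over the averaged doses, Ttn at 300 ng/ml), and that of Ldb3 because it is a Z-disc gene with no call. They come from RefSeq on GRCm38.p6, whose promoter table held 6 entries for 5 of the 10 genes (Ttn, Actn2, Myoz2, Mybpc1 and Ldb3, which had 2). Each is the 250 bases before the start of the entry, on the minus strand, at chr3:123034988-123035237 for Myoz2, chr2:76982548-76982797 for Ttn and chr14:34588682-34588931 for Ldb3. The Ldb3 entry printed is the further upstream of its pair, and its start lies inside the gene. Capitals mark matches to CANNTG, MEF2 and CArG motifs on either strand.
Myoz2: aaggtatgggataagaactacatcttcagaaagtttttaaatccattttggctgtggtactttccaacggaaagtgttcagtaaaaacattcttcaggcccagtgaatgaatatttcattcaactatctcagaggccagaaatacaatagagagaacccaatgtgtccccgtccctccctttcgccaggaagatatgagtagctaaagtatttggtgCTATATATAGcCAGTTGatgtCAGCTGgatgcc
Ttn: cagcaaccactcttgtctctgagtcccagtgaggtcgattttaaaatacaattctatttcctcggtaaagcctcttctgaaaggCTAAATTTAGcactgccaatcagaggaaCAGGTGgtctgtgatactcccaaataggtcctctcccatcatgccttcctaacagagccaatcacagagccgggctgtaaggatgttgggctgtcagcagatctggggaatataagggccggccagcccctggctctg
Ldb3: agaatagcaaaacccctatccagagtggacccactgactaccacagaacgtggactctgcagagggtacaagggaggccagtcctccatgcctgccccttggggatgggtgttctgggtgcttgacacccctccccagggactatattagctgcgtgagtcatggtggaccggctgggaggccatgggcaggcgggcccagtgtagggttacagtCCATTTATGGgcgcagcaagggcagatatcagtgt

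Counted back from the start site, the Myoz2 window held a MEF2 match, CTATATATAG, whose first base lies at -33, and E-boxes CAGTTG at -22 and CAGCTG at -12. The Ttn window held a MEF2 match, CTAAATTTAG, at -166 and an E-box CAGGTG at -138. The Ldb3 window held neither CANNTG nor MEF2 letters, and had a CArG match, CCATTTATGG, at -35. Among the windows not printed, Actn2 had 3 E-boxes and Mybpc1 had CAGCTG at -87 and CATCTG at -57. Neither of these windows held a MEF2 match, and both genes were called lower with BMP4. Whether motif matches go with the BMP4 change was not tested. The M-CAT letters CATTCC were in none of the 6. Over 32851 promoter windows of the same length, 66.2% held CANNTG, 12.6% CATTCC, 2.92% a MEF2 match and 1.47% a CArG match. These matches are descriptions of letters, and whether a factor binds them was not measured.

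BMP4 lowered 7 of the 10 genes, by limma with Benjamini-Hochberg adjustment over all genes (adjusted p under 0.05), when its 3 doses were averaged and set against untreated cells. They were Ttn, Neb, Actn2, Actn3, Myoz2, Mybpc1 and Myom2, and 0 of the 10 rose. Of all genes tested, 4.60% were called lower and 4.20% higher in the same comparison. The median log2 difference of the 10 genes was -1.37, against -0.01 over all genes. A fall on an array can come from fewer cells of a type or from less RNA per cell, which cannot be told apart here.

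**Figure D1:**
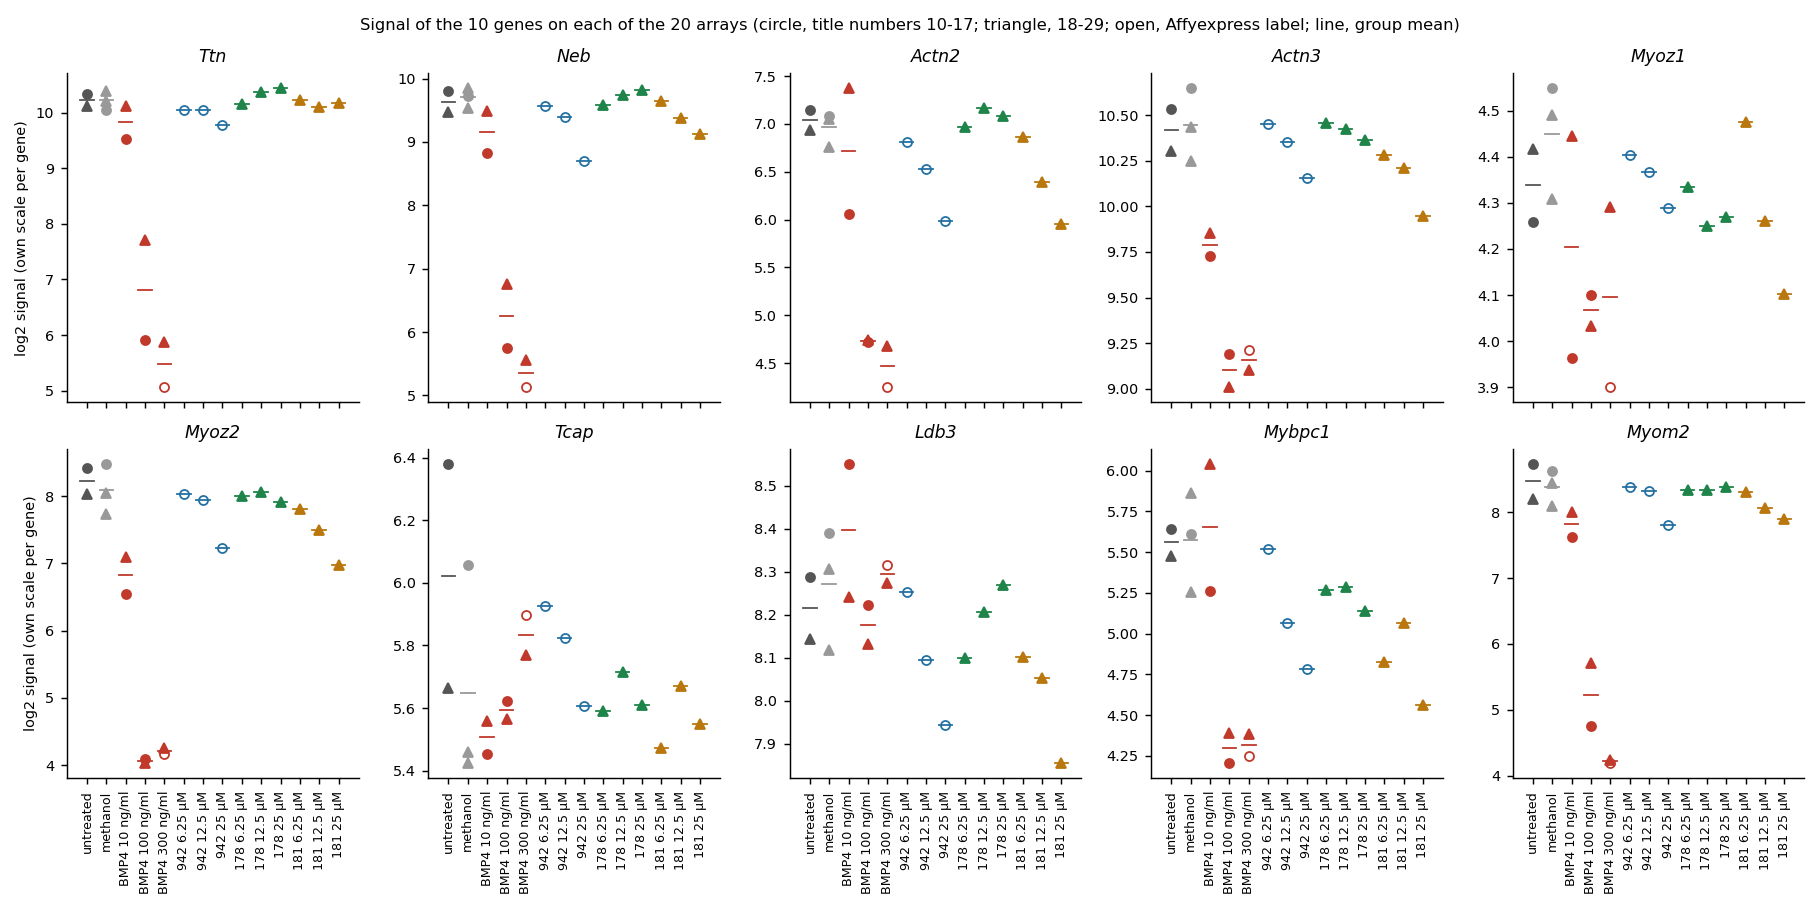
Log2 signal (vertical axes, 1 scale per gene) of the 10 genes on all 20 arrays, grouped by treatment and dose along the horizontal axis. Circles are the lower-numbered and triangles the higher-numbered set of arrays, open symbols carry the Affyexpress label, and lines are group means. At BMP4 100 and 300 ng/ml, Ttn, Neb, Actn2, Actn3, Myoz2, Mybpc1 and Myom2 lie below all 5 control arrays, while Tcap and Ldb3 lie among them at 100 ng/ml.

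Titin, the spring that spans from Z-disc to M-band, read 10.33 and 10.12 in untreated cells and 10.06, 10.39 and 10.21 with methanol. It read 9.53 and 10.13 at 10 ng/ml BMP4, 5.91 and 7.71 at 100 ng/ml, and 5.06 and 5.88 at 300 ng/ml. The arrays of the upper doses lie far below every control, with the replicates at 100 ng/ml far from each other, while 1 of the 2 arrays at 10 ng/ml lies within the control range. Averaged over doses, Ttn fell 6.58-fold (log2 difference -2.72, SE 0.35, limma adjusted p = 4.17e-04).

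Nebulin, which lies along the thin filament, read 9.81 and 9.47 untreated and 9.73, 9.85 and 9.54 with methanol. With BMP4 it read 8.83 and 9.49 at 10 ng/ml, 5.75 and 6.76 at 100 ng/ml, and 5.13 and 5.56 at 300 ng/ml. As for Ttn, both upper doses lay wholly below the controls and 1 array at 10 ng/ml overlapped them. The averaged fall was 6.25-fold (log2 -2.64, SE 0.24, limma adjusted p = 4.03e-05).

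Among the Z-disc genes, Myoz2, the myozenin that binds alpha-actinin and calcineurin, had the largest averaged estimate of the 10. Some genes had signals near the low end of the scale at the upper doses, so this place is not read as an order of the falls. Its signal was 8.42 and 8.03 untreated, 8.48, 8.05 and 7.74 with methanol, 6.55 and 7.10 at 10 ng/ml, 4.09 and 4.03 at 100 ng/ml, and 4.16 and 4.26 at 300 ng/ml. Every BMP4 array lay below every control array, and the 4 arrays at the upper doses lay close together, between 4.03 and 4.26. Myoz2 fell 9.03-fold (log2 -3.17, SE 0.20, limma adjusted p = 3.02e-06).

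The alpha-actinins, which cross-link actin at the Z-disc, both fell. Actn2 read 7.14 and 6.93 untreated, 7.09, 7.06 and 6.75 with methanol, 6.06 and 7.37 at 10 ng/ml, 4.72 and 4.74 at 100 ng/ml, and 4.25 and 4.68 at 300 ng/ml. Its 2 arrays at 10 ng/ml lay on opposite sides of the controls. Over the doses Actn2 fell 3.17-fold (log2 -1.66, SE 0.26, limma adjusted p = 0.00178).
Actn3 read 10.53 and 10.30 untreated, 10.65, 10.43 and 10.25 with methanol, 9.73 and 9.85 at 10 ng/ml, 9.19 and 9.01 at 100 ng/ml, and 9.21 and 9.10 at 300 ng/ml. No BMP4 array overlapped a control array, and Actn3 fell 2.12-fold (log2 -1.09, SE 0.12, limma adjusted p = 1.13e-04). The difference between the changes of Actn2 and Actn3 was not tested.

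Of the thick filament genes, Myom2, the M-band myomesin of fast fibres, read 8.74 and 8.21 untreated, 8.64, 8.45 and 8.09 with methanol, and 7.62 and 8.01 at 10 ng/ml. It then read 4.75 and 5.71 at 100 ng/ml and 4.19 and 4.24 at 300 ng/ml. No BMP4 array overlapped a control, and the fall was 6.54-fold (log2 -2.71, SE 0.24, limma adjusted p = 3.68e-05).
Mybpc1, the slow skeletal myosin-binding protein C, read 5.64 and 5.48 untreated, 5.61, 5.86 and 5.25 with methanol, 5.26 and 6.04 at 10 ng/ml, 4.21 and 4.39 at 100 ng/ml, and 4.25 and 4.38 at 300 ng/ml. Its arrays at 10 ng/ml spanned the control range and passed it at the top. Its averaged fall, 1.72-fold (log2 -0.78, SE 0.21, limma adjusted p = 0.0415), was the smallest estimate of the 7. Its signals at the upper doses lay near the low end of the scale, so this place is not read as an order. The call of Mybpc1 was lost in several settings. With 1 array left out, its adjusted p was 0.264 (untreated replicate 1), 0.127 (untreated replicate 2), 0.0545 (methanol replicate 1), 0.0527 (replicate 1 at 10 ng/ml) and 0.0677 (replicate 1 at 100 ng/ml). Without replicate 2 at 300 ng/ml that dose could not be fitted, and the mean of the 10 and 100 ng/ml doses alone gave -0.58 (adjusted p = 0.171). It was 0.0518 with no trend in the variance, and 0.00297 to 0.258 over all settings other than leaving out an array.

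The other 3 genes, all of the Z-disc, did not pass the test for BMP4. Tcap encodes telethonin, which caps the end of titin at the Z-disc. It read 6.38 and 5.66 untreated, 6.06, 5.46 and 5.42 with methanol, 5.45 and 5.56 at 10 ng/ml, 5.62 and 5.57 at 100 ng/ml, and 5.90 and 5.77 at 300 ng/ml. The control arrays of the lower-numbered set were the highest of the 20 arrays, and the BMP4 arrays lay within the control range. The log2 difference was -0.40 (SE 0.21, limma adjusted p = 0.345), with -0.72 in the lower-numbered set and -0.03 in the higher-numbered set. The value of the lower-numbered set includes the 300 ng/ml array with the Affyexpress label, set against an untreated array without it.
Myoz1, the fast-fibre myozenin, lay between 3.90 and 4.55 on all 20 arrays. Its mean signal stood at the 28.2 percentile of all genes, near the low end of the scale, where no detection call was given. Its log2 difference was -0.15 (SE 0.16, limma adjusted p = 0.703).
Ldb3, the PDZ-LIM scaffold also called ZASP or Cypher, read 8.29 and 8.14 untreated, 8.39, 8.31 and 8.12 with methanol, 8.55 and 8.24 at 10 ng/ml, 8.22 and 8.13 at 100 ng/ml, and 8.32 and 8.27 at 300 ng/ml. All but 1 of its 6 BMP4 arrays lay within the control range, the exception being 1 above it at 10 ng/ml. Its log2 difference was 0.07 (SE 0.12, 95% interval -0.19 to 0.32, limma adjusted p = 0.85), an interval that holds neither a 2-fold fall nor a 2-fold rise.

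When doses of a treatment were given 1 common mean, so that differences between doses entered the spread, 3 of the 10 genes passed (Myoz2, Myom2 and Actn3). Of all 22180 genes, 1775 were called either way in that fit. Adjusted p-values were then 0.0661 for Ttn, 0.0506 for Neb, 0.0709 for Actn2 and 0.258 for Mybpc1. Within the lower-numbered set the averaged differences of the 7 genes were -3.50 for Ttn, -3.24 for Neb, -2.13 for Actn2, -1.16 for Actn3, -3.48 for Myoz2, -1.07 for Mybpc1 and -3.21 for Myom2. In the higher-numbered set they were -2.21, -2.19, -1.33, -0.98, -2.90, -0.54 and -2.22 in the same order, from single arrays and with no test.

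The fall had a step between 10 and 100 ng/ml. At 10 ng/ml only Myoz2 was called among the 10 genes, 2.64-fold lower (log2 -1.40, SE 0.24, limma adjusted p = 0.0157), where 0.546% of all genes were called lower. Its adjusted p rose past the threshold when untreated replicate 1 (0.187) or BMP4 10 ng/ml replicate 1 (0.16) was left out. Over settings that kept all arrays, adjusted p for Myoz2 ranged from 0.00213 to 0.0352. Actn3 stood next, with a log2 difference of -0.63 (SE 0.14, adjusted p = 0.0548), and passed in 8 of the settings tried, with adjusted p of 0.00541 to 0.147 over those that kept all arrays. The other differences at 10 ng/ml ran from -0.65 for Myom2 (adjusted p = 0.466) to 0.18 for Ldb3 (0.744).

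The replicates at 10 ng/ml disagreed for several genes. In the lower-numbered set, Actn2 lay 1.08 below the untreated array, and in the higher-numbered set 0.44 above it. Ttn differed from its untreated array by -0.80 and 0.01, Neb by -0.98 and 0.03, Mybpc1 by -0.38 and 0.56, and Myom2 by -1.11 and -0.19. Myoz2 (-1.87 and -0.93) and Actn3 (-0.81 and -0.45) were lower in both sets. Without BMP4 10 ng/ml replicate 2, Actn2 was called (log2 -0.98, adjusted p = 0.0368). Both arrays at 10 ng/ml lay below all 5 control arrays for 3 genes, Actn3, Myoz2 and Myom2, as did 8.92% of all genes, and for the same 3 all 6 BMP4 arrays lay below the controls (4.59% of all genes).

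At 100 ng/ml the 7 genes were called lower, against 4.75% of all genes. Ttn fell 10.6-fold, Neb 10.4-fold and Actn3 2.49-fold, with signals that stayed above the array medians. The measured falls were 17.9-fold for Myoz2, 9.45-fold for Myom2, 4.96-fold for Actn2 and 2.40-fold for Mybpc1. Both arrays of Myoz2, Actn2 and Mybpc1 and 1 of Myom2 lay below the array medians, near the low end of the scale, where no detection call was given. Such signals may be at background, so these folds, and those averaged over doses, may understate the fall, and no order is read from them. Mybpc1 (adjusted p = 0.00752) was lost without untreated replicate 1 (0.0644) or BMP4 100 ng/ml replicate 1 (0.0548). Both arrays lay below all controls for 8 genes, the 7 and Myoz1, where 14.1% of all genes did so.

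At 300 ng/ml the same 7 were called, against 4.28% of all genes. The fitted folds at this dose rest on replicate 2 alone, because replicate 1 carried the Affyexpress label. Ttn fell 20.3-fold, Neb 16.8-fold and Actn3 2.49-fold. Replicate 1 of Ttn (5.06) and Neb (5.13), which does not enter these folds, lay close to the array medians. The measured falls of Myom2 (18.8-fold), Myoz2 (15.6-fold), Actn2 (5.12-fold) and Mybpc1 (2.26-fold) rest on signals below the array medians on both arrays, with the same limit. Mybpc1 (adjusted p = 0.0363) was lost without either untreated array (0.143 and 0.0782). For these 7 both arrays lay below every control, as for 16.2% of all genes.

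From 10 to 100 ng/ml the same 7 fell, against 1.88% of all genes called lower. The log2 differences were -3.02 for Ttn, -2.90 for Neb, -2.76 for Myoz2, -2.59 for Myom2, -1.99 for Actn2, -1.35 for Mybpc1 and -0.69 for Actn3. For Mybpc1 (adjusted p = 0.0144) the call was lost without BMP4 100 ng/ml replicate 1 (0.115) or BMP4 10 ng/ml replicate 2 (0.143). The call of Actn3 (adjusted p = 0.0198) was lost when replicate 2 at 10 ng/ml (0.17) or at 100 ng/ml (0.0669) was left out, and with no trend (0.0624).
From 100 to 300 ng/ml 0 of the 10 genes were called by limma, where 0.00902% of all genes were called either way and 1129 genes, 1 of them among the 10 (Myom2), had an unadjusted p under 0.05. The log2 differences were -0.99 for Myom2 (95% interval -1.76 to -0.22), -0.93 for Ttn (-2.03 to 0.17) and -0.69 for Neb (-1.46 to 0.07). In 4 genes (Ttn, Neb, Actn2 and Myom2) both arrays at 300 ng/ml lay below both at 100 ng/ml, as for 14.9% of all genes. Without BMP4 100 ng/ml replicate 1, which read 5.91 for Ttn, the Ttn difference between these doses was -1.83 in log2, from 1 array per dose.

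**Figure D2:**
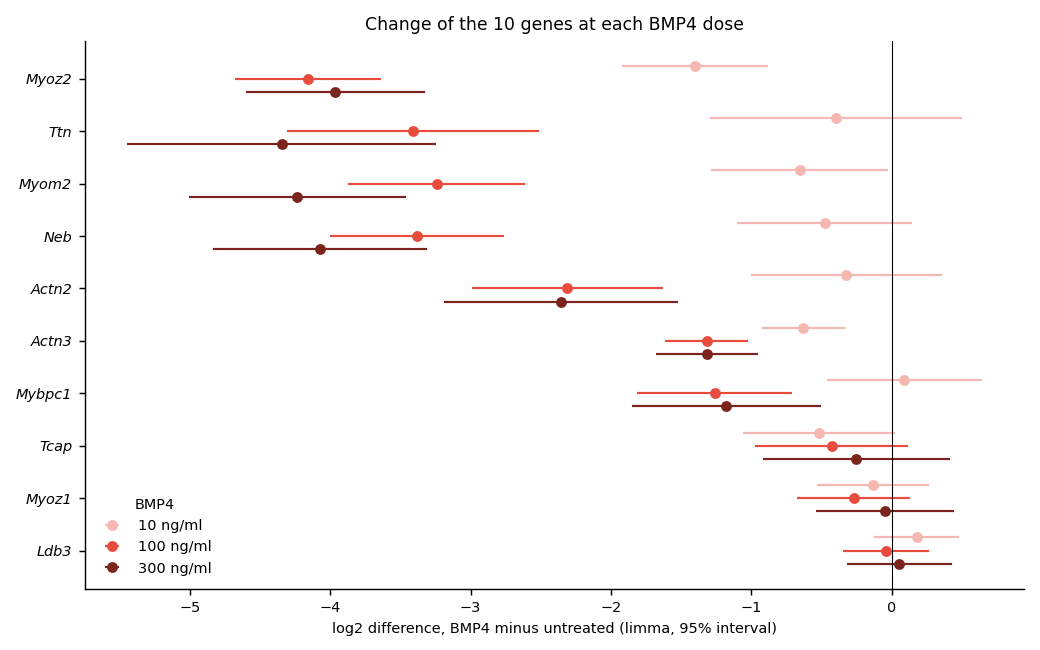
Log2 difference from untreated cells (horizontal axis, limma estimate with 95% interval) of each of the 10 genes at BMP4 10, 100 and 300 ng/ml. At 10 ng/ml the points lie between -1.40 and 0.18. At 100 and 300 ng/ml Ttn, Neb, Myoz2 and Myom2 lie below -3, while Tcap, Myoz1 and Ldb3 have intervals that cross 0 at every dose.

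The 7 called genes were called lower with BMP4 on these same arrays, so their places among the groups are descriptions. Ordered by group mean over the 14 combinations of treatment and dose, all 7 had their lowest 2 places at BMP4 100 and 300 ng/ml. Limma made no call between these neighbours, and the order of the pair is not read for Actn2, Myoz2, Mybpc1 and Myom2, whose signals there lay near the low end of the scale. BMP4 10 ng/ml stood at place 12 from the top for Actn3 and Myoz2, 11 for Ttn and Myom2, 10 for Neb, 8 for Actn2 and 1 for Mybpc1. Over the 14 group means, each gene's correlation with the mean standardised profile of the other 9 was 0.96 for Actn2, 0.95 for Myoz2, 0.93 for Actn3, 0.91 for Neb, 0.90 for Myom2, 0.85 for Mybpc1, 0.84 for Ttn and 0.76 for Myoz1. Tcap (0.09) and Ldb3 (0.02) stood apart from that profile. The group means share the same arrays, and BMP4 groups carry most of the range, so these coefficients are descriptions.

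Markers of cell state moved with the BMP4 doses. Of 5 myoblast markers, 4 fell over the averaged doses (Myog -2.88, Cdh15 -2.12, Myod1 -0.67 and Des -0.47 in log2), beside 4.60% of all genes called lower. The mean of that list lay at 10.47 to 10.51 in untreated cells, 10.49 to 10.54 at 10 ng/ml, 8.64 to 9.39 at 100 ng/ml and 8.18 to 8.34 at 300 ng/ml. At 10 ng/ml, 0 of the 5 were called, beside 0.546% of all genes called lower, with log2 differences of 0.45 for Myf5, 0.19 for Myod1, 0.03 for Myog, -0.22 for Des and -0.30 for Cdh15 (SE 0.14 to 0.33). Of 5 osteoblast markers 4 were measured, and 3 rose, namely Sp7 (3.97), Alpl (3.18) and Bglap (1.46), beside 4.20% of all genes called higher. Ibsp did not pass (-0.30, limma adjusted p = 0.34). The mean of the 4 lay at 4.54 to 4.56 untreated, 4.61 to 4.98 at 10 ng/ml, 6.31 to 7.51 at 100 ng/ml and 8.00 to 8.16 at 300 ng/ml. The part of these changes in the fall of the sarcomere genes was not tested.

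Other genes of the same structures were counted by role, and 36 of 38 were measured. BMP4 lowered 21 of the 36 and raised 0, with a median log2 difference of -0.77, set beside the 4.60% of all genes called lower. The count was 12 when untreated replicate 1 was left out, and 13 when the doses shared 1 mean. Over all 22180 genes, 915 and 1775 were called either way in these settings. The main fit called 1021 of them lower and 932 higher.
Of the list for titin, nebulin and thin filament ends, 3 of 7 fell. They were the leiomodins Lmod2 (-1.61) and Lmod3 (-1.57), which promote actin assembly, and the nebulin relative Nrap (-0.97). Nebl (0.25), Tmod1 (-0.01) and Tmod4 (0.17) did not pass.
In the Z-disc list 8 of 14 fell, led by the PDZ-LIM gene Pdlim3 (-3.06), the synaptopodin relative Synpo2l (-2.18) and the LIM protein Csrp3 (-1.87). Pdlim5 (-0.09) and Pdlim7 (-0.20), which are of the same family as Ldb3, did not pass over the averaged doses. At 100 ng/ml Pdlim7 was called lower (-0.35, adjusted p = 0.0394). In the M-band and thick filament list 4 of 6 fell, with Myom1 at -1.53, Mybpc2 at -0.96 and Myom3 at -0.91.
Among genes of sarcomere assembly and turnover 6 of 9 fell. The kelch protein Klhl41, which steadies nebulin, stood at -2.52, the ubiquitin ligase Trim55 at -1.91 and the methyltransferase Smyd1, which acts in myosin assembly, at -1.26. At 10 ng/ml 1 of the 36 was called, Csrp3 (log2 -1.10, limma adjusted p = 0.0264), at 100 ng/ml 21 and at 300 ng/ml 18, all lower. The shares of all genes called lower at these doses were 0.546%, 4.75% and 4.28%.

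Genes that play like roles outside the sarcomere were counted apart. Of 8 such genes, 1 fell (the focal adhesion protein Zyx, -0.60, limma adjusted p = 0.00423) and 1 rose (the actin scaffold Palld, 0.71, adjusted p = 0.00648). Over the averaged BMP4 doses 4.60% of all genes were called lower and 4.20% higher. The non-muscle alpha-actinins Actn1 (-0.23) and Actn4 (-0.06), filamin Flna (-0.16), vinculin Vcl (-0.05), Pdlim1 (-0.27) and talin Tln1 (-0.23) did not pass. Whether their changes differ from those of the sarcomere genes was not tested.

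**Figure D3:**
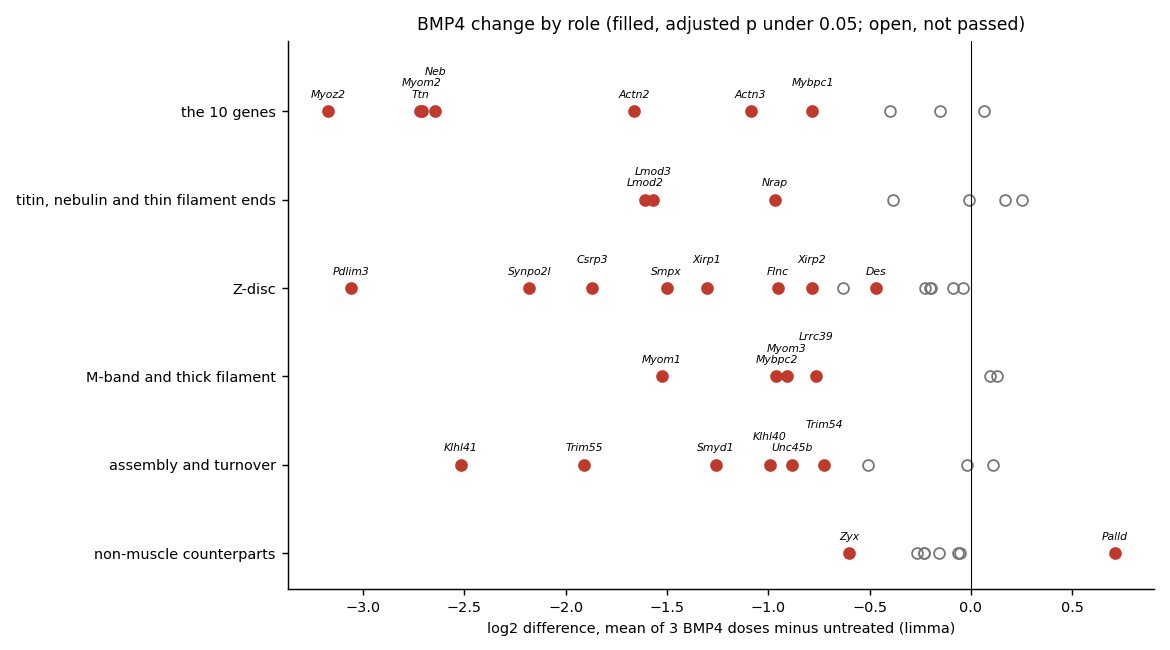
Log2 difference of the mean of 3 BMP4 doses from untreated cells (horizontal axis, limma), 1 point per gene, in rows by role. Filled points passed at adjusted p under 0.05 and are named, and open points did not. Filled points lie left of 0 in all rows save that of the non-muscle counterparts, where Palld lies at 0.71 and Zyx at -0.60.

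The 5 genes whose group means most resembled the mean standardised profile of the 10 were sought among all others, by Pearson correlation over the 14 group means. They were Unc45b (0.987), a myosin chaperone, Trim72 (0.982), a membrane repair protein of muscle, Ablim3 (0.982), an actin-binding LIM protein, Bcam (0.981), a laminin-binding adhesion protein, and Mb (0.981), myoglobin. Their averaged BMP4 differences were -0.88, -1.93, -1.86, -1.01 and -2.01. BMP4 groups carry most of the range of that profile, so falls follow from how these genes were picked and are no separate result.

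Methanol differed from untreated cells for 0 of the 10 genes by limma, as for 0% of all genes. Of all genes, 634 had an unadjusted p under 0.05 and 0 of these were among the 10. The log2 differences ran from -0.37 for Tcap to 0.11 for Myoz1, and 5 were below 0.

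None of the 3 compounds gave a call among the 10 genes by limma when its doses were averaged and set against methanol. For 942 and 178, 0% of all genes were called, and for 181 0.00451%. Unadjusted p-values under 0.05 were found for 333 genes with 942, 547 with 178 and 816 with 181, of which 0, 0 and 5 were among the 10. In the values as deposited, the 10 genes had a median log2 difference from methanol of -0.24 for 942, -0.03 for 178 and -0.30 for 181, and 9, 7 and 10 of them lay below 0. Against the methanol arrays of the same set, the medians were -0.40, 0.05 and -0.20, with 10, 3 and 9 genes below 0.

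As deposited, 942 had the lower median against methanol of the same set (-0.40, with -0.20 for 181). Against all methanol 181 did (-0.30, with -0.24 for 942). In the fit, where values of 942 depend on the label term, compound 181 had the lowest estimates of the 3. Mybpc1 differed from methanol by -0.76 (95% interval -1.21 to -0.31), Myoz2 by -0.66 (-1.08 to -0.23), Actn2 by -0.56 (-1.11 to -0.0035), Actn3 by -0.30 (-0.54 to -0.05) and Ldb3 by -0.27 (-0.52 to -0.02). Their intervals, which are not adjusted for the number of genes, lie below 0, yet the adjusted p was 1 for each.
At 6.25, 12.5 and 25 µM of 181, Actn2 read 6.86, 6.40 and 5.96, where methanol read 6.75 to 7.09. Myoz2 read 7.82, 7.50 and 6.98 against 7.74 to 8.48, and Mybpc1 4.83, 5.07 and 4.56 against 5.25 to 5.86. At the highest dose each lies below every control array, and Mybpc1 does so at all 3 doses. All 3 arrays lay below all 3 of methanol for 2 genes, Ldb3 and Mybpc1, as for 6.51% of all genes. The differences at 25 µM from the methanol mean were -1.11 for Myoz2, -1.02 for Mybpc1 and -1.01 for Actn2, from 1 array each and with no test.

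Compound 942 gave lower values at higher dose for several genes in the deposited values, while its fitted errors were wide. At 6.25, 12.5 and 25 µM, Actn2 read 6.81, 6.53 and 5.99, Neb 9.57, 9.40 and 8.71, Myoz2 8.03, 7.94 and 7.23, and Mybpc1 5.52, 5.06 and 4.78. The lowest value of each was at 25 µM, where the differences from the methanol mean were -0.998 for Neb, -0.98 for Actn2, -0.86 for Myoz2 and -0.79 for Mybpc1. In the fit the differences averaged over doses ran from -0.32 for Mybpc1 (95% interval -1.22 to 0.58) to 0.56 for Ttn (-0.91 to 2.02). Without the label term Ttn stood at -0.26. That term is the gap between the 2 BMP4 300 ng/ml arrays, which read 5.06 and 5.88 for Ttn and lay in different sets. For Ttn alone, all 3 arrays of 942 lay below all 3 of methanol, as for 6.79% of all genes.

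Compound 178 stayed near methanol. At 6.25, 12.5 and 25 µM, Actn2 read 6.97, 7.17 and 7.08, Neb 9.58, 9.73 and 9.81, Ttn 10.15, 10.37 and 10.44, and Myoz2 8.01, 8.06 and 7.92. All of these lie within or close to the range of the methanol arrays. The fitted differences ran from -0.34 for Mybpc1 (95% interval -0.79 to 0.11) to 0.11 for Actn2 (-0.45 to 0.66). In 0 of the 10 genes did all 3 arrays lie below methanol, against 4.92% of all genes.

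Signals were lower at higher dose for most of the 10 genes under 942 and 181, as deposited. They were lower at each higher dose for 9 genes with 942 (all but Ttn, against 21.1% of all genes), 7 with 181 (Neb, Actn2, Actn3, Myoz1, Myoz2, Ldb3 and Myom2, against 19.4%) and 1 with 178 (Actn3, against 16.4%). At 25 µM, 8 genes under 942 (all but Tcap and Myoz1, against 17.2%), 8 under 181 (all but Tcap and Ttn, against 22.3%) and 1 under 178 (Mybpc1, against 16.5%) lay below all 5 control arrays. Each dose had 1 array and the title number rose with dose within each compound, so dose and title number cannot be told apart.

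**Figure D4:**
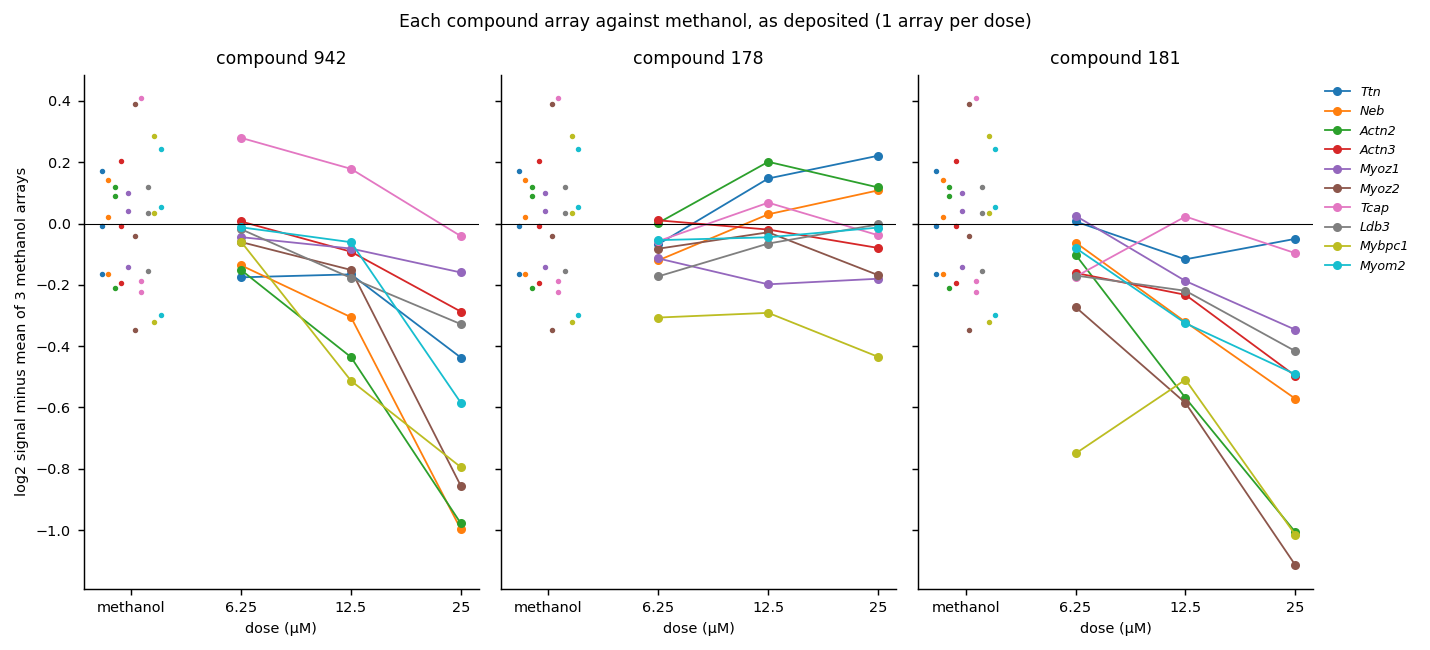
Log2 signal minus the mean of the 3 methanol arrays (vertical axis) for the 10 genes at 6.25, 12.5 and 25 µM of each compound (horizontal axis), as deposited, with 1 array per dose. Small dots at the left of each panel are the single methanol arrays. At 25 µM Actn2 lies at -0.98 with 942, 0.12 with 178 and -1.01 with 181, and Myoz2 at -0.86, -0.17 and -1.11.

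The compounds were compared in 3 pairs at matched doses, with p-values adjusted over all genes within each pair. Between 181 and 178, which lay in the same set, 0 of the 10 genes were called by limma, against 0.00451% of all genes, and 3 of the 10 and 1173 of all genes had an unadjusted p under 0.05. All 10 estimates were below 0, from -0.67 for Actn2 (95% interval -1.22 to -0.11, adjusted p = 0.901) and -0.56 for Myoz2 (-0.99 to -0.14, adjusted p = 0.863) to -0.01 for Myoz1 (-0.33 to 0.32). The signal was lower with 181 than with 178 at all 3 doses for 6 genes, Actn2, Actn3, Myoz2, Tcap, Mybpc1 and Myom2, as for 17.7% of all genes.
Between 942 and 178, 0 of the 10 genes were called, against 0% of all genes, with 401 genes at an unadjusted p under 0.05 and 0 of them among the 10. The estimates ran from -0.21 for Actn3 (95% interval -0.69 to 0.28) to 0.46 for Myoz1 (-0.19 to 1.11). Between 942 and 181, 0 of the 10 were called, against 0% of all genes, with 364 genes at an unadjusted p under 0.05 and 0 of them among the 10. These estimates ran from 0.05 for Ldb3 (-0.45 to 0.55) to 0.61 for Ttn (-0.85 to 2.08). The intervals of the pairs with 942 cross 0 for all 10 genes and leave room for a difference either way, so they do not show that the compounds act alike.

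The 4 lists of other sarcomere genes had 0 calls with each compound and with methanol by limma. Of all genes, 0% were called with 942, 178 and methanol and 0.00451% with 181, so these counts say nothing particular about the lists. Their median log2 differences were 0.02 for 942, -0.02 for 178 and -0.19 for 181 over 36 genes. Csrp3 stood at -0.65 with 181 (SE 0.17, adjusted p = 1). The mean of the myoblast markers lay at 10.27 to 10.55 over the 9 compound arrays and at 10.42 to 10.53 with methanol. The mean of the osteoblast markers lay at 4.37 to 4.68 and 4.50 to 4.71.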

How the data were processed

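The deposited values are log2 signals, 1 per probe set and array, made by the authors in Partek 6.5 with RMA, per the submitters' processing notes. The labels' protocols mention samples labelled by both methods as a basis for batch correction. Whether the values were corrected was not given in the sources used here. Of 41345 probe sets, 23521 had 1 symbol in GEO's platform annotation, 1814 had several and 16010 were unnamed in it. Each of 22180 genes was represented by its brightest probe set on average. Limma 3.58.1 in R 4.3.3 was fitted to all 20 arrays, with a mean for every treatment and dose plus a label term (5 residual degrees of freedom), eBayes with a trend, Benjamini-Hochberg adjustment over all genes and 95% intervals without adjustment. The single array of a compound dose is assumed to vary like the other groups. The scripts were tested on simulated data. The genes and lists were chosen with earlier results of these data known. All 10 genes are named, and of each list of other genes the 3 called ones with the largest BMP4 change, any called gene that goes the other way, and the 5 genes most alike in profile. Other genes of those lists were named after their values were seen. No 2 arrays of a group shared over 0.0363% of values. The number of arrays limits the precision. Alternatives were the label term, a term for the set of title numbers, the control, a common mean for doses, the trend, averaged probe sets, a filter at a signal of 5, quantile or median scaling, and leaving out each array.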

Additional observations from a re-analysis of the deposited data

Results flagged for a closer look

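Actn2 was singled out because every array of 178 lay above the mean of methanol (by 0.0022, 0.20 and 0.12) and every array of 181 and of 942 below it. With 178 the fitted difference from methanol was 0.11 (95% interval -0.45 to 0.66, adjusted p = 1), so no movement upward is shown. Its deposited signal, averaged over the 3 matched doses, was lower by 0.67 with 181 than with 178 (log2 difference -0.67). For 942 minus 178 the difference was -0.63. The rule itself is no test. In limma the difference between 181 and 178 had an adjusted p of 0.901, and for 942 minus 178 the fitted difference was -0.20 (95% interval -1.31 to 0.91, adjusted p = 1). Outlying arrays within a group were not looked for, since no group held 4 or more arrays.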

How the results depend on the processing

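Over 71 gene and comparison pairs, leaving out each of 20 arrays in turn gave 1367 values with the same direction and side of the threshold, 13 with the opposite sign, 5 that newly passed and 16 that no longer passed. The 10 other alternatives gave 597, 3, 5 and 6. Of the 10 genes, 3 were called for averaged BMP4 with a common mean for the doses in place of 7, with 6 to 7 when an array was left out. Of the 36 other sarcomere genes 13 were called in place of 21, with 12 to 22 when an array was left out. With the common mean 1775 of all genes were called either way. At 10 ng/ml, 2 genes in place of 1 were called with no label term, a term for the set of title numbers, methanol or both controls as the control, and the filter on dim genes, and 0 to 2 when an array was left out. From 100 to 300 ng/ml the Ttn difference ran from -1.83 to -0.03 when an array was left out, with 1 array per dose at both ends of that range. The sign turned for Tcap at 300 ng/ml with methanol as control (0.12), for Ttn with 942 without the label term (-0.26) and for Tcap with 181 and a term for the set of title numbers (0.032). When an array was left out the sign turned for Ldb3 over averaged doses (-0.0069 to 0.14), at 100 ng/ml (-0.11 to 0.032) and at 300 ng/ml (-0.016 to 0.13). It also turned for Tcap at 300 ng/ml (-0.61 to 0.11), and at 10 ng/ml for Actn2 (-0.98 to 0.34), Myoz1 (-0.37 to 0.11) and Mybpc1 (-0.30 to 0.48). The same held for Myoz1 at 300 ng/ml (-0.12 to 0.032) and from 10 to 100 ng/ml (-0.38 to 0.10), for Myoz2 with 178 (-0.27 to 0.10), and with 181 for Ttn (-0.14 to 0.032) and Tcap (-0.19 to 0.12). None of these turned values passed the test. The cause was not tested. With a BMP4 300 ng/ml array left out, the label term could not be estimated, so 942 was not compared, and without replicate 2 neither was 300 ng/ml, and averaged BMP4 values rest on 10 and 100 ng/ml. A comparison of 942 with a common mean for the doses is not given.

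The labels number no replicates, so no pairing by replicate number was made. A fit with a term for the 2 sets of title numbers, which acts as a block, called 7 of the 10 genes for averaged BMP4, 2 at 10 ng/ml (Actn3 joined, adjusted p = 0.00882), 7 at 100 and 7 at 300 ng/ml.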
